A study of Homo sapiens with 6 samples.

Results

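The aminoacyl-tRNA synthetases and their AIMP cofactors were examined in U251 cells, an established human glioma line, after knockdown of the transcription factor gene TEAD3. The members were 37 named genes, taken from the 60612 gene identifiers of the count table by symbol: 19 synthetases of the cytosol, 16 of the mitochondrion and the 2 cofactors AIMP1 and AIMP2. All 37 were found and all 37 passed the filter on low counts, with between 578 and 82145 counts per library. The control group was U251 with the genotype Normal Control, 3 libraries, and the other group was U251 with the genotype TEAD3 Knockdown, 3 libraries. The knockdown was transient. A plasmid vector for TEAD3 and an siRNA are both mentioned in the labels, with a check of the knockdown at about 36 h; the treatment of the controls is not described. All libraries come from this single line, and nothing in the labels says that the replicates were separate cultures, so the p-values reflect how far these libraries differ among themselves, and that spread may be technical.

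Aminoacyl-tRNA synthetases join each amino acid to its matching tRNA, the step that sets the genetic code before the ribosome is reached. Human cells encode separate nuclear genes for most cytosolic and mitochondrial enzymes, with GARS1 and KARS1 supplying both compartments. Mitochondrial glutaminyl-tRNA is made by a transamidation route, in which EARS2 charges the tRNA with glutamate first. In the cytosol several synthetases are held in a multi-synthetase complex by the scaffold proteins AIMP1, AIMP2 and the product of EEF1E1. The stress-response regulator ATF4 is known to raise many cytosolic synthetase genes when amino acids are short, which is why the family is read here beside that response. GARS1 and KARS1 are counted as cytosolic below.

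Total counts lay between 58344026 and 64808615 per library. The synthetase and AIMP genes together took 0.504%, 0.500% and 0.499% of the counts in the control libraries and 0.505%, 0.541% and 0.545% in the knockdown libraries, by replicate number. TEAD3 was at 14.9, 20.3 and 21.0 CPM (counts scaled to library size, TMM-normalised) in the controls and 4.70, 8.35 and 6.08 CPM in the knockdown, with no overlap (log2 fold change -1.55, SE 0.22, edgeR adjusted p = 0.0114). The listed markers of glioma and the astrocyte lineage went both ways. VIM and CD44 were at 3433 to 4842 CPM and 588 to 690.2 CPM across the libraries. NES, SOX2 and SOX9 were at 161 to 228, 114 to 160 and 39.1 to 49.8 CPM. GFAP, S100B and AQP4 reached at most 1.80, 0.686 and 0.176 CPM. Of the leukocyte markers PTPRC reached at most 0.123 CPM and CD3E had no count, while CD68, a lysosomal gene also found outside leukocytes, was at 123 to 154 CPM; its part in the results was not tested. Non-polyadenylated RNAs varied within the knockdown group: RN7SL1 stood at 60.8 and 79.8 CPM in knockdown replicates 1 and 3, 14.4 CPM in replicate 2 and 14.7 to 34.5 CPM in the controls, and its part in the results below was not tested.

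No synthetase or AIMP gene was called after the knockdown. A gene was called at an adjusted p under 0.05 in edgeR's quasi-likelihood test, adjusted over all 17723 genes tested, of which 0.655% were called, 0.451% as higher and 0.203% as lower. DESeq2, which called 3.42% of its genes as higher and 2.69% as lower, and limma-voom (0.446% and 0.231%) also called 0 of the 37. The smallest adjusted p among the members was 0.216 in edgeR (YARS1), 0.0993 in DESeq2 and 0.196 in limma-voom. At an unadjusted p under 0.05 edgeR gave 7 of 37 members higher (18.9%) and 1 lower (2.7%), where all genes tested gave 8.15% and 7.43%. In 8 members (21.6%) every knockdown library lay above every control, against 11.0% of all genes, and in 2 (5.41%) every one lay below, against 10.6%. Leaving out a library moved the unadjusted counts of the members and of all genes. Without control replicate 1 there were 4 members higher and 0 lower (all genes 7.27% and 6.18%), without control replicate 2 there were 8 and 1 (11.4% and 11.3%), and without control replicate 3 there were 1 and 0 (5.88% and 4.44%). With knockdown replicate 1 left out 5 were higher and 1 lower (all genes 4.97% and 4.68%), with replicate 2 left out 4 and 1 (7.77% and 7.12%), and with replicate 3 left out 0 and 0 (5.19% and 4.26%).

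The spread of the fold changes was narrow. Log2 fold changes (knockdown over control) ran from -0.31 in IARS2 to 0.55 in VARS2, with a median of 0.06 over the 37 members and -0.0012 over all genes tested. For 36 of 37 members the 95% interval of the fold change lay inside 1.5-fold in either direction. These intervals are for single genes and are not adjusted for the number of genes. The share of all genes tested with such an interval was not computed, so this is not shown to be particular to the family. The exception was VARS2, with an interval from 0.991-fold to 2.17-fold. The median standard error of a member's log2 fold change was 0.11.

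**Figure D1:**
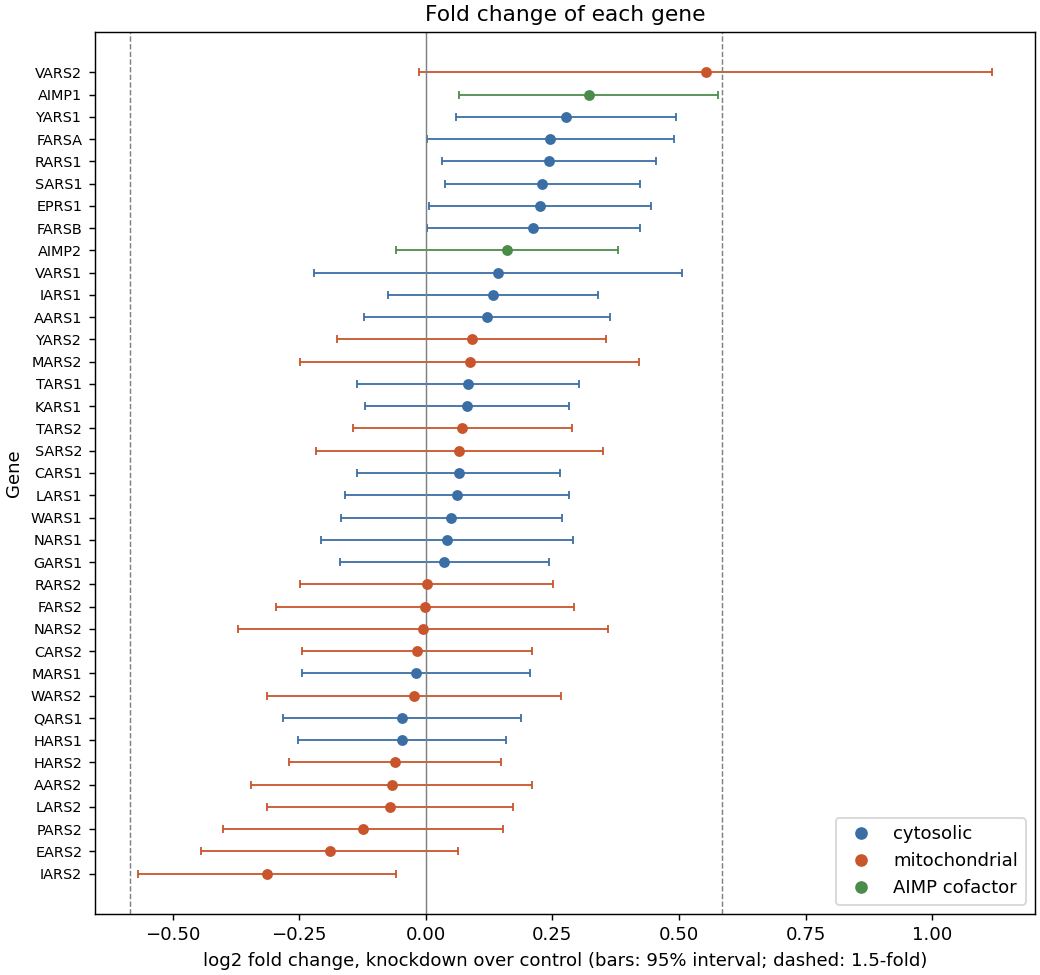
Log2 fold change of each of the 37 genes, knockdown over control, with its 95% interval (bars, from the edgeR fit, 3 libraries per group) and dashed lines at 1.5-fold; colours mark cytosolic synthetases, mitochondrial synthetases and the AIMP cofactors. Only the bar of VARS2 crosses a dashed line, and most cytosolic genes lie to the right of 0.

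Cytosolic and mitochondrial synthetases differed in where their values fell. Of the 19 cytosolic genes 16 had a fold change above 0 (median 0.08), where 49.8% of all genes tested did. In 6 of them (31.6%) the groups did not overlap and the knockdown was higher, against 11.0% of all genes. Of the 16 mitochondrial genes 6 were above 0 and 10 below (median -0.01). The 2 without overlap, IARS2 and PARS2, were both lower, a share of 12.5% that is near the 10.6% of all genes. The difference between the compartments was not tested. The median deviation of the cytosolic genes from their mean over all libraries was -0.05, -0.05 and -0.07 (log2) in the 3 controls and 0.01, 0.07 and 0.07 in the 3 knockdown libraries. By this median every knockdown library lay above every control, though not by the summed level given below. For the mitochondrial genes these medians were 0.0066, 0.07 and 0.03 in the controls and -0.01, 0.0074 and -0.06 in the knockdown, and the groups overlapped. Between 14 and 17 of the 19 cytosolic genes were above 0 whichever library was left out.

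**Figure D2:**
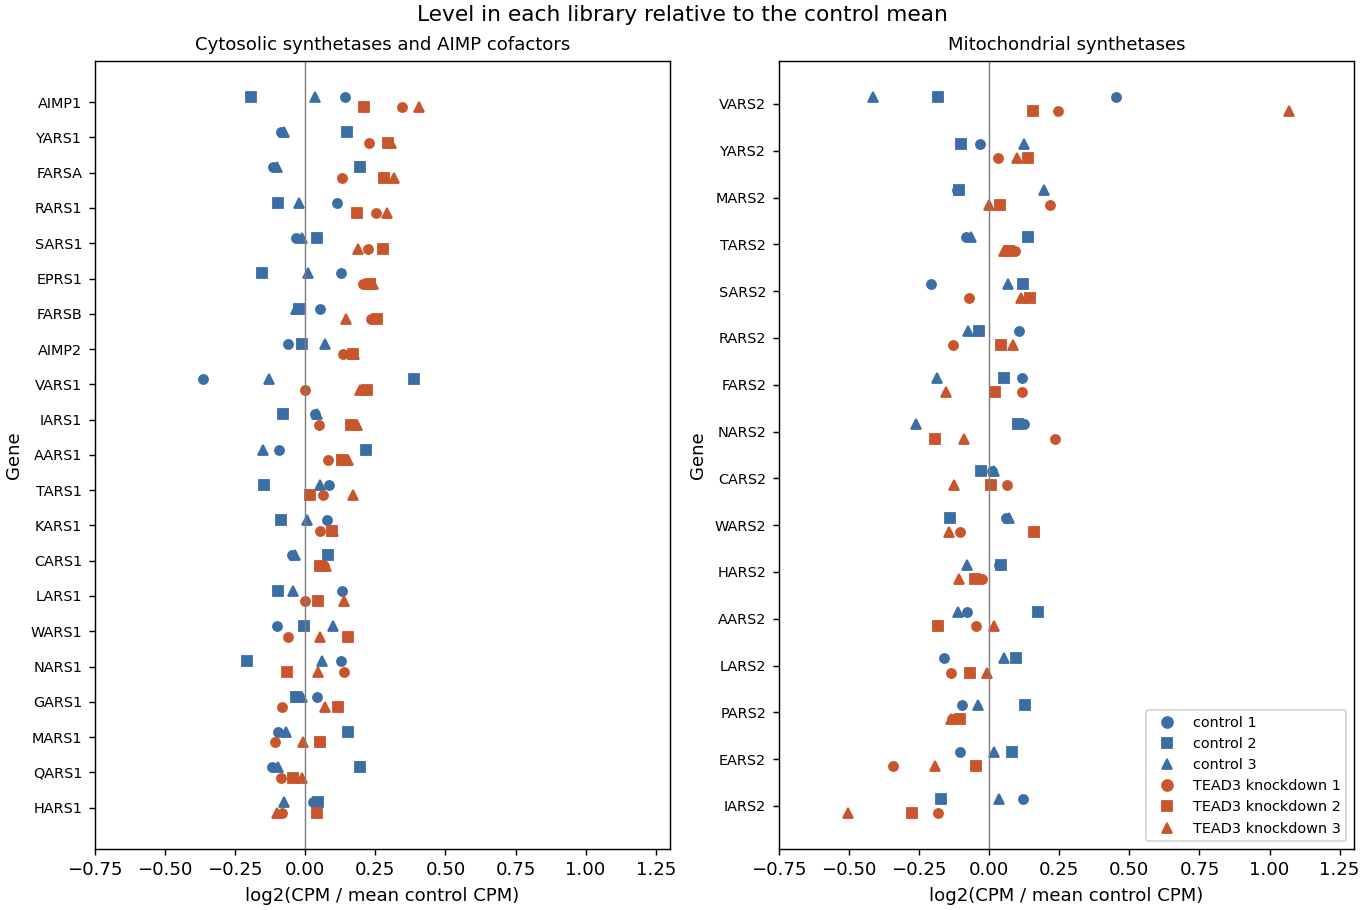
Level of each gene in each library as log2 of its CPM over the mean control CPM, with cytosolic synthetases and AIMP cofactors in the left panel and mitochondrial synthetases in the right; blue marks the 3 controls, orange the 3 knockdown libraries, and marker shape the replicate number. Genes such as YARS1, SARS1, RARS1 and AIMP1 have all orange points to the right of the blue ones, IARS2 has them to the left, and VARS2 has 1 knockdown library far to the right.

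Levels per length differed far more between members than between groups. Scaled by merged exon length to TPM, a level per length, control means ran from 9.67 TPM for CARS2 to 484.9 TPM for WARS1, with a median of 83.8 TPM over the cytosolic and 16.8 TPM over the mitochondrial genes. The cytosolic genes summed to 2317.3, 2165 and 2258.5 TPM in the controls and 2126.2, 2393.5 and 2384.7 TPM in the knockdown. These sums overlapped, with knockdown replicate 1 below every control. WARS1, the tryptophan enzyme and a known target of interferon gamma, held 21.6% of the summed cytosolic level. Its level was 485 ± 40.4 TPM in the controls and 474 ± 47.5 TPM in the knockdown (SD, n = 3 each), and in CPM it was 1076, 1151 and 1236 in the controls and 1106, 1283 and 1198 in the knockdown, with overlap (log2 fold change 0.05, interval 0.890-fold to 1.20-fold). AARS1, the alanine enzyme, came next at 289.5 ± 23.4 TPM in the controls. SARS1 (serine) and FARSA (the catalytic subunit for phenylalanine) followed at 195 ± 8.08 and 193 ± 11.2 TPM, which did not differ beyond their spread. GARS1 (glycine) stood at 169 ± 15.7 TPM. The least abundant cytosolic gene was CARS1 (cysteine) at 25.2 ± 0.592 TPM. In CPM it was at 91.8, 100.3 and 92.6 in the control libraries and 99.4, 98.4 and 99.97 in the knockdown, with overlap. CARS2, its mitochondrial partner, was at 38.1, 37.1 and 38.2 CPM in the control libraries and 39.5, 37.9 and 34.6 CPM in the knockdown, also with overlap. Merged exons count alternative exons that a cell need not use, so the level of a gene such as CARS2, whose merged exons span 10460 bases against 3516 bases for its longest transcript, may be understated.

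The cytosolic member was above its mitochondrial partner in 12 of the 13 pairs that share an amino acid. The ratio was widest for WARS1 to WARS2, at 5.10 ± 0.15 on the log2 scale in the controls (SD, n = 3), and near 0 for HARS1 to HARS2, at 0.03 ± 0.0061. IARS1 to IARS2 was the exception at -1.26 ± 0.09: the mitochondrial isoleucine enzyme, the most abundant mitochondrial member at 84.3 ± 14.0 TPM, exceeded the cytosolic one at 35.04 ± 3.88 TPM. The log2 ratio of IARS1 to IARS2 was -1.35, -1.17 and -1.26 in the 3 controls and -1.03, -0.83 and -0.58 in the 3 knockdown libraries. Every knockdown library thus lay nearer to parity than every control. The ratios of AARS1 to AARS2 and RARS1 to RARS2 were also higher in every knockdown library than in every control (mean differences 0.19 and 0.24), and in the remaining 10 pairs the groups overlapped. Ratios were not tested.

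**Figure D3:**
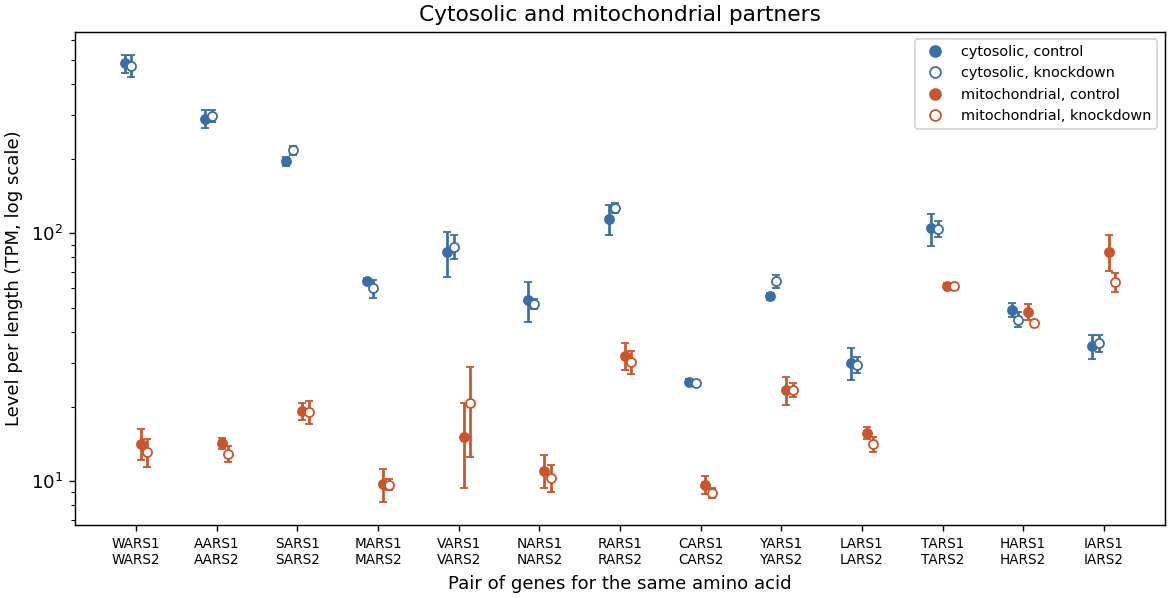
Level per length (TPM, log axis) of the cytosolic (blue) and mitochondrial (orange) gene of each of 13 pairs, as mean ± SD over 3 control libraries (filled) and 3 knockdown libraries (open), ordered by the control ratio. The blue points lie above the orange ones except for isoleucine, where IARS2 is higher than IARS1, and histidine, where HARS1 and HARS2 meet.

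YARS1, the tyrosine enzyme (ENSG00000134684, GRCh38 chr1:32775237-32818153, minus strand), had the smallest adjusted p. It was at 162, 191 and 163 CPM in the control libraries and 201, 211 and 213 CPM in the knockdown, so the lowest knockdown library exceeded the highest control. The log2 fold change was 0.28 with SE 0.10 (edgeR adjusted p = 0.216), an interval from 1.04-fold to 1.41-fold. With control replicate 2 left out it was called (0.36, edgeR adjusted p = 0.042, in a fit that called 1.40% of genes as higher and 1.78% as lower) and with a correction for transcript length and GC content (0.31, 0.0258, in a fit that called 1.47% and 1.62%).

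SARS1, the serine enzyme, was at 274, 289 and 278 CPM in the control libraries and 327, 339.6 and 319 CPM in the knockdown. The groups did not overlap (log2 fold change 0.23, SE 0.09, edgeR adjusted p = 0.245). RARS1, the arginine enzyme and a complex member, was at 157, 136 and 143 CPM in the control libraries and 173, 165 and 178 CPM in the knockdown (0.24, SE 0.10, edgeR adjusted p = 0.257). EPRS1, a fused enzyme that charges both glutamate and proline tRNAs, was at 169, 139 and 156 CPM in the control libraries and 178, 181 and 183 CPM in the knockdown (0.23, SE 0.10, edgeR adjusted p = 0.308). It was called with the length and GC correction (0.28, edgeR adjusted p = 0.037), and its value was 0.15 without control replicate 2, its lowest library.

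The phenylalanine enzyme of the cytosol is built from the products of FARSA and FARSB. FARSB was at 56.7, 53.8 and 53.4 CPM in the control libraries and 64.3, 65.2 and 60.4 CPM in the knockdown, with no overlap (log2 fold change 0.21, edgeR adjusted p = 0.317). FARSA was at 163, 202 and 165 CPM in the control libraries and 194, 215 and 221 CPM in the knockdown, where control replicate 2 lay above knockdown replicate 1 (0.25, edgeR adjusted p = 0.317).

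IARS1, the isoleucine enzyme, was at 99.2, 91.6 and 99.7 CPM in the control libraries and 100.2, 108 and 109.9 CPM in the knockdown. Its groups did not overlap, though control replicate 3 and knockdown replicate 1 nearly met (log2 fold change 0.13, edgeR adjusted p = 0.546). At the other end of the cytosolic set, HARS1 (histidine), QARS1 (glutamine) and MARS1 (methionine) had log2 fold changes of -0.05, -0.05 and -0.02, each with overlapping groups. MARS1 was at 158, 188 and 162 CPM in the control libraries and 157, 176 and 169 CPM in the knockdown. Its exons overlap those of DDIT3 on the opposite strand over 355 bases, 5.05% of the MARS1 exons, and DDIT3, the gene of the stress factor CHOP, was itself called as higher, at 51.9, 49.2 and 54.3 CPM in the control libraries and 102, 81.2 and 89.2 CPM in the knockdown. Its log2 fold change was 0.81 (edgeR adjusted p = 0.00931). That DDIT3 call was lost without knockdown replicate 1 or 3 (edgeR adjusted p of 0.0577 and 0.0697).

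Control replicate 2 departed from the other controls along GC content. Spearman's correlation between a member's transcript GC content and the log2 difference of control replicate 2 from the other controls was 0.725 over the 37 members, a description of libraries that share their preparation. The trend was not particular to the members. Over the protein-coding genes tested, GC content was correlated with each library's deviation from the mean over all libraries. Spearman's correlation was -0.45, 0.558 and -0.178 in the controls and -0.0984, 0.141 and 0.0174 in the knockdown. Control replicate 1 thus departed in the opposite direction to control replicate 2. VARS1, the valine enzyme, has the most GC-rich transcript at 62.6% and was at 252.5 CPM in control replicate 2 against 150.05 and 176 CPM in control replicates 1 and 3. Its knockdown libraries, at 193, 225 and 221 CPM, lay between these values. The log2 fold change of VARS1 was 0.14 (edgeR adjusted p = 0.743), and it was -0.01 with control replicate 1 left out and 0.38 with control replicate 2 left out. AIMP1, with the lowest GC content at 36.3%, had its lowest control in the same library. With the length and GC correction the cytosolic median was 0.16 in place of 0.08, with 18 of 19 genes above 0. Not every value grew: SARS1, RARS1 and FARSA were at 0.170, 0.182 and 0.169 with the correction, below 0.230, 0.243 and 0.246 without it. FARSB and IARS1 were at 0.217 and 0.190 with it, against 0.213 and 0.133 without it. That fit called 2 members as higher, YARS1 and EPRS1, and had 10 members higher and 1 lower before adjustment (p under 0.05), where all genes gave 9.11% and 11.1%.

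**Figure D4:**
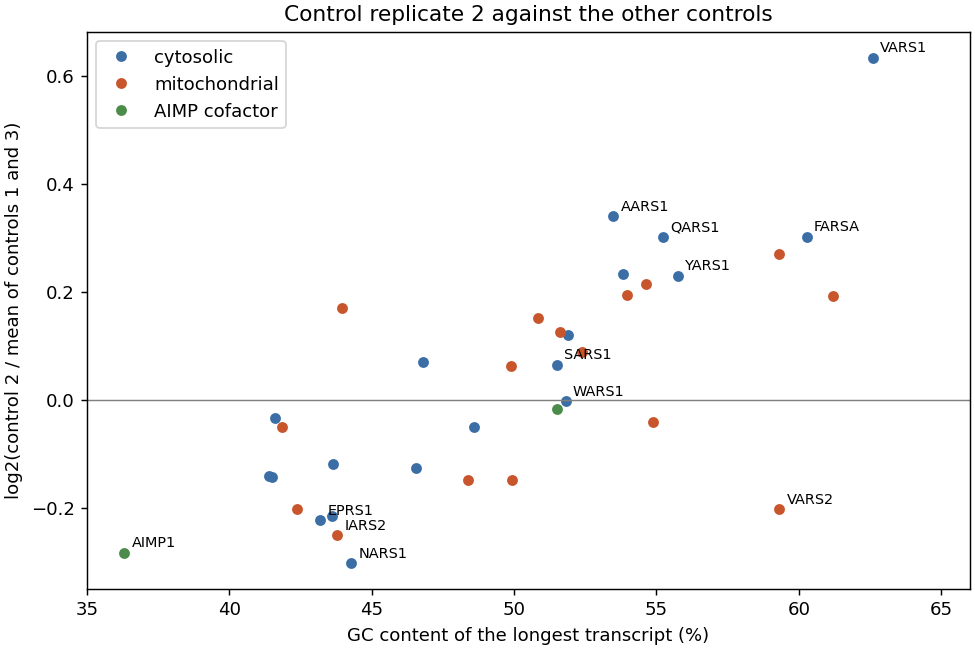
Log2 difference between control replicate 2 and the mean of control replicates 1 and 3 (vertical axis) against the GC content of the longest annotated transcript (horizontal axis) for the 37 genes, coloured by set. Points rise from AIMP1 at 36.3% GC to VARS1 at 62.6% GC; VARS2 lies below this trend.

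Of the AIMP cofactors, AIMP1 (ENSG00000164022, GRCh38 chr4:106315544-106349226, plus strand) had a larger value than AIMP2. AIMP1 was at 51.2, 40.6 and 47.6 CPM in the control libraries and 59.0, 53.7 and 61.5 CPM in the knockdown, with no overlap (log2 fold change 0.32, SE 0.12, edgeR adjusted p = 0.221). The AIMP1 value was 0.226 with the length and GC correction and 0.231 without control replicate 2. AIMP2 was at 35.7, 36.9 and 39.1 CPM in the control libraries and 40.9, 41.9 and 42.1 CPM in the knockdown, also without overlap (0.16, SE 0.10, edgeR adjusted p = 0.477), but its value was 0.02 with the length and GC correction. EEF1E1, whose product is the third scaffold protein and which is not among the 37, was at 30.1, 24.0 and 28.1 CPM in the control libraries and 39.8, 31.9 and 41.1 CPM in the knockdown. All 3 scaffold genes were thus higher in every knockdown library than in every control, as were 11.0% of all genes tested. None of the 3 was called by edgeR. The log2 fold change of EEF1E1 was 0.46 (edgeR adjusted p = 0.148), it was called by DESeq2 (adjusted p = 0.0281) and was at 0.25 with the length and GC correction. Exons of AIMP2 overlap those of EIF2AK1, a kinase gene of the stress response, on the opposite strand over 28.9% of their length. EIF2AK1 was lower in every knockdown library (308 ± 9.97 CPM in the controls, 262 ± 11.7 CPM in the knockdown, SD, n = 3 each), with a log2 fold change of -0.23 that edgeR did not call (adjusted p = 0.255).

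Of the 9 members that belong to the complex (EPRS1, IARS1, LARS1, QARS1, MARS1, KARS1, RARS1, AIMP1 and AIMP2), 7 were above 0 (49.8% of all genes were) and 5 were higher without overlap (11.0% of all genes were), with a median of 0.13. The 7 synthetases among them had a median of 0.08, and the 12 cytosolic synthetases outside the complex had a median of 0.10 with 11 above 0. By the architecture of the catalytic domain, 9 cytosolic enzymes are of class I (median 0.06, 7 above 0) and 9 of class II (median 0.08, 8 above 0), and EPRS1 holds a domain of each. KARS1, the lysine enzyme of both compartments, was at 154, 138 and 147 CPM in the control libraries and 152, 156 and 157 CPM in the knockdown (log2 fold change 0.08, edgeR adjusted p = 0.731). Its exons overlap those of TERF2IP over 4.33% of their length, a telomere protein gene on the opposite strand, which was called as lower (log2 fold change -0.56, edgeR adjusted p = 0.0255). The TERF2IP call was lost without the filter on low counts (0.0639), with the replicate block (0.064), without control replicate 1 or 3 (edgeR adjusted p of 0.0811 and 0.149) and without knockdown replicate 1, 2 or 3 (0.134, 0.0669 and 0.214).

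IARS2 (ENSG00000067704, GRCh38 chr1:220094102-220148041, plus strand) had the lowest fold change of the family. It was at 142, 116 and 134 CPM in the control libraries and 115, 108 and 92.3 CPM in the knockdown, so that all knockdown libraries were lower, with knockdown replicate 1 less than 1 CPM below control replicate 2. The log2 fold change was -0.31 with SE 0.12 (edgeR adjusted p = 0.235), an interval from 0.674-fold to 0.961-fold. It ranged from -0.40 to -0.23 over the fits that left out a library. PARS2, the proline enzyme of mitochondria, was at 15.4, 18.0 and 16.0 CPM in the control libraries and 15.1, 15.3 and 15.0 CPM in the knockdown (log2 fold change -0.12, edgeR adjusted p = 0.697). EARS2, the glutamate enzyme, was at 36.0, 41.0 and 39.2 CPM in the control libraries and 30.5, 37.5 and 33.9 CPM in the knockdown, with overlap in knockdown replicate 2 alone (-0.19, edgeR adjusted p = 0.465).

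VARS2, the mitochondrial valine enzyme, varied most between libraries of the same group. It was at 64.4, 41.5 and 35.3 CPM in the control libraries and 55.8, 52.5 and 98.9 CPM in the knockdown, so knockdown replicate 3 stood far above the other libraries and control replicate 1 lay above the remaining knockdown libraries. The log2 fold change of 0.55 (SE 0.26, edgeR adjusted p = 0.332) became 0.20 without knockdown replicate 3 and 0.85 without control replicate 1. VARS2 shares 22.0% of its exon bases with GTF2H4 on the same strand, a subunit gene of a general transcription factor that also repairs DNA, so the assignment of reads is uncertain. GTF2H4 was at 95.1, 47.8 and 75.9 CPM in the control libraries and 63.0, 82.5 and 103 CPM in the knockdown, and was highest in the same library as VARS2. YARS2 (tyrosine) and MARS2 (methionine), the next highest mitochondrial genes, had log2 fold changes of 0.09 and 0.09 with overlapping groups. The remaining mitochondrial members lay between -0.07 (LARS2 for leucine, AARS2 for alanine) and 0.07 (TARS2 for threonine), all with overlapping groups.

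The genes HARS1 and HARS2 lie head to head on chromosome 5 of GRCh38, with annotated starts 436 bases apart, at 140691862 on the minus strand and 140691426 on the plus strand. HARS2 was at 69.1, 69.5 and 64.0 CPM in the control libraries and 66.4, 65.2 and 62.6 CPM in the knockdown (log2 fold change -0.06), and HARS1 was at 147, 149 and 137 CPM and then 136, 149 and 135 CPM (-0.05). Their annotated exons overlap over 437 bases. Exons of 21 of the 37 members overlap another annotated gene on either strand, in 5 members over at least 10% of their length. The strand setting of the counting is not known, so reads from such pairs cannot be told apart there. YARS1 and AIMP1 are among these, through S100PBP (4.82% of the YARS1 exons) and TBCK (11.6% of the AIMP1 exons), both on the opposite strand, while SARS1, RARS1, EPRS1, FARSB, IARS1 and IARS2 have no such overlap. S100PBP had a log2 fold change of -0.18 and TBCK of -0.03, neither called by edgeR.

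The rest of the charging pathway was read from a list of 28 further genes, covering tRNA ends, export, editing and transamidation among other steps. Of these, 1 rose and none fell in edgeR, against 0.451% and 0.203% of all genes. Before adjustment 2 were higher (7.14%) and 1 lower (3.57%), neither share above the 8.15% and 7.43% of all genes, and the median was 0.03 with 17 above 0. The gene that rose was PTRH2, which encodes a mitochondrial peptidyl-tRNA hydrolase. PTRH2 was at 38.8, 34.5 and 30.9 CPM in the control libraries and 57.1, 50.6 and 56.4 CPM in the knockdown, with no overlap (log2 fold change 0.65, SE 0.12, edgeR adjusted p = 0.0319). The call was lost when control replicate 3 was left out (edgeR adjusted p = 0.171), or knockdown replicate 1, 2 or 3 (0.156, 0.061 and 0.214). It was also not called without the filter on low counts (0.0976) or with the replicate number as a block (0.0721).

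Genes of the amino acid response, a list of 32 that holds no synthetase, had a median of 0.21 against 0.08 for the cytosolic synthetases. In it 4 rose and none fell by edgeR, against 0.451% and 0.203% of all genes, and before adjustment 13 were higher (40.6%) and 1 lower (3.12%), against 8.15% and 7.43%. The 4 were SLC3A2, SLC7A5, DDIT3 and NUPR1, with log2 fold changes of 1.17, 1.14, 0.81 and 0.70. Values over the 32 ran from -0.26 to 1.17, with 24 above 0 (75%, against 49.8% of all genes) and 8 below. Some lay near 0, such as 0.04 in PSAT1 and 0.02 in MTHFD2. SLC3A2, the heavy chain of an amino acid transporter, was at 150.1, 179 and 180.5 CPM in the control libraries and 397, 325 and 422 CPM in the knockdown. SLC7A5, its light chain, was at 41.3, 52.5 and 59.9 CPM in the control libraries and 99.4, 110.3 and 129 CPM in the knockdown. NUPR1, a stress-induced gene, was at 36.3, 33.2 and 32.8 CPM in the control libraries and 63.2, 48.7 and 54.6 CPM in the knockdown. The groups did not overlap in any of these. This list was drawn up with that outcome known and is no independent evidence of its direction. Leaving out knockdown replicate 3 ended the SLC7A5 call (edgeR adjusted p = 0.0559). The NUPR1 call ended without the filter (0.0927), without control replicate 1 or 3 (0.0627 and 0.149), and without knockdown replicate 1 or 3 (0.143 and 0.168). ATF4 itself was at 321, 314 and 311 CPM in the control libraries and 389.7, 365 and 363 CPM in the knockdown, with no overlap (log2 fold change 0.24, edgeR adjusted p = 0.228). The largest cytosolic synthetase value, 0.28 in YARS1, was thus close in size to that of ATF4 and below those of the 4 called genes. No member of the cytosolic set had an interval that reached 1.5-fold.

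Promoter sequence from RefSeq (GRCh38.p14) was matched for 32 of the 37 members and searched over the 250 bases before the RefSeq start, on both strands. The letters TGATGNAA, the core of the C/EBP-ATF response element through which ATF4 acts, were found in 3 of the 32 (9.4%), against 3.2% of 27303 promoters of the same length. The letters GGAATG, the core of the TEAD recognition element, were found in 0 of the 32, against 11.9% of all promoters. The 3 matches are shown because they are the stretches of the family's promoters that hold either motif, with the match in capitals, read 5′ to 3′ on the strand of the gene. In AARS1 and IARS1 the match is on the opposite strand, so that it reads as its reverse complement. The AARS1 stretch is at chr16:70289675-70289704, the IARS1 stretch at chr9:92293698-92293721 and the YARS2 stretch at chr12:32756076-32756105, all on the minus strand.
AARS1: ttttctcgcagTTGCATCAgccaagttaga
IARS1: ttttcagcgcgTTGCATCAcctcc
YARS2: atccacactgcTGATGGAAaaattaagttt
The 3 matches start 187, 13 and 197 bases before the RefSeq start of AARS1, IARS1 and YARS2. By GENCODE release 29 IARS1 starts upstream of this, at 92293756, so its stretch lies inside the gene in that annotation. The AARS1 stretch lies inside another gene there, DDX19B, which starts at 70289663 and runs away from AARS1 on the opposite strand. AARS1 was at 459, 569.6 and 442 CPM in the control libraries and 518, 536 and 544.5 CPM in the knockdown, with overlap through control replicate 2 (log2 fold change 0.12, edgeR adjusted p = 0.663). YARS2 was at 18.3, 17.5 and 20.4 CPM in the control libraries and 19.1, 20.6 and 20.1 CPM in the knockdown (0.09, edgeR adjusted p = 0.782). With IARS1 at 0.13, the log2 fold changes of these 3 genes lay within the range of the other members. Among genes with larger values, YARS1, VARS1 and VARS2 had no promoter entry and were not searched. SARS1 and the others with larger values held no match in this window.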

How the data were processed

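The authors deposited whole-number counts per Ensembl gene for 6 libraries of oligo(dT)-selected RNA, made with dUTP strand marking per the labels' protocols, with no scaling. The submitters' processing notes name GRCh38, StringTie 1.3.4d, HISAT2 2.0.4, edgeR, DESeq2 and cutadapt 1.9, with no roles. Which tool wrote the counts, with what annotation and strand setting, is not given in the sources used here. Symbols matched 60401 of 60612 identifiers, and coordinates, exon overlaps, lengths and GC content came from GENCODE release 29 on GRCh38.

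Counts were tested in R 4.3.3 with edgeR 4.0.16 (quasi-likelihood F test, TMM, filterByExpr with a minimum of 10 counts, group as the only term, two-sided, Benjamini-Hochberg over 17723 genes). The procedure was tested on simulated data. Alternatives were DESeq2 1.42.0, limma-voom (limma 3.58.1), other scalings and filters, a replicate block, leaving out each library, an adjusted p under 0.01, and a per-library loess correction (span 0.3) for length and GC content. DESeq2 gave an adjusted p for 14274 genes. A level of 3 counts corresponds to 0.0463 to 0.0514 CPM, which covers counting error only. No libraries were duplicates: chi-square per degree of freedom was 23.1 or more for each pair.

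The members and lists were chosen with earlier results of these data known. The genes named by rule are TEAD3, called members, the 3 largest and 3 smallest fold changes and the most and least abundant gene of each compartment, the AIMP genes, members whose groups do not overlap, and the 3 called genes of smallest p in each other list. Further genes were chosen after their values were seen.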

Additional observations from a re-analysis of the deposited data

How the results depend on the processing

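Of the 37 members, 22 kept the direction of their fold change in all 15 alternative fits and 15 did not. The largest value among those 15 was 0.14 in VARS1. No member was called as lower in any of these fits. The number called as higher was 2 with the length and GC correction and lay between 0 and 1 when a library was left out. All genes called numbered 116, and 31 without a filter on low counts, 872 by DESeq2, 548 with the length and GC correction, 27 at an adjusted p under 0.01, and 20 to 589 when a library was left out. TEAD3 was not called without the filter (-1.56, edgeR adjusted p = 0.0639), and lay between -1.80 and -1.37 when a library was left out. It was not called without control replicate 3 or knockdown replicates 1 and 3 (0.0541, 0.0532 and 0.0938). The cytosolic median was 0.16 with the length and GC correction. When a library was left out it lay between 0.0728 and 0.121, the mitochondrial median between -0.0463 and 0.0339, and the median of all members between 0.0457 and 0.095.

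Values near 0 changed sign. With the length and GC correction the log2 fold changes were 0.0289 for CARS2, 0.0748 for FARS2, 0.0128 for HARS1, 0.0246 for LARS2, 0.0427 for MARS1, -0.0874 for RARS2 and -0.017 for SARS2. FARS2 was at 0.00024 with DESeq2 size factors in edgeR, 0.0073 with upper-quartile scaling, 0.0025 with the stricter filter, 0.00015 by DESeq2 and 0.000402 with the replicate block. NARS2 was at 0.0038 with upper-quartile scaling, and RARS2 at -0.0091 with library size alone and -0.00053 without a filter. Leaving out a library gave -0.12 to 0.026 for AARS2, -0.057 to 0.0336 for CARS2, -0.0861 to 0.0696 for FARS2, -0.00358 to 0.0959 for GARS1, -0.0665 to 0.0603 for MARS1 and -0.0545 to 0.11 for NARS1. It gave -0.138 to 0.0814 for NARS2, -0.103 to 0.0584 for QARS1, -0.0414 to 0.0659 for RARS2, -0.0279 to 0.134 for SARS2, -0.0101 to 0.382 for VARS1, -0.00252 to 0.106 for WARS1 and -0.124 to 0.0343 for WARS2. The cause was not tested.

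The replicate numbers come from the library titles, and whether libraries of the same number share a batch is not known. Deviations of same-numbered libraries from their group means correlated at 0.0056, -0.02 and 0.0083, and those of differently numbered libraries at -0.0249 to 0.0188. With the replicate block 63 genes were called, none of them a member.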
